A study of Rattus norvegicus with 12 samples.

Results

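Mitochondrial ribosomal protein genes were followed in the left ventricle of rats exposed to repeated social defeat. The members were the rows of the deposited gene table whose symbol is Mrpl or Mrps followed by a number and at most 1 letter. Of 32735 rows, 74 met this with a capital M. A further 3 rows, mrpl9, mrpl11 and mrpl24, carry the same symbols in lower case and were included, which gave 77 members. All 12 libraries came from adult wild-type Groningen rats, with 1 library per rat. The 6 rats of the RSD group went through resident-intruder defeat sessions on 8 consecutive days, and the 6 rats of the CTR group were unhandled. The series describes all rats as male, although RSD 40 is labelled female. Libraries are named by group and number, CTR 22 to CTR 27 and RSD 33, 34, 35, 38, 39 and 40.

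Mitochondria translate the few proteins encoded in their own genome on a separate ribosome. Its RNAs come from the mitochondrial genome, while its proteins are encoded in the nucleus, made in the cytosol and imported. The products are core subunits of the respiratory chain and the ATP synthase, so heart muscle depends on this ribosome for its oxidative energy supply. Some of its proteins have counterparts in bacterial ribosomes and others are specific to mitochondria.

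By textbook assignment, 26 members belong to the small subunit and 49 to the large subunit. Mrps18a and Mrps30 are counted in the large subunit despite their symbols. The remaining 2 are Mrps36, which RefSeq lists as Kgd4 and which belongs to the 2-oxoglutarate dehydrogenase complex, and Mrps21l, whose role is not assigned here. At least 1 read was found for 74 members, and 69 passed the filter on low counts and were tested. Among the 8 that were not tested, Mrpl1, Mrps10, Mrps31, Mrpl43 and Mrpl49 had 123, 24, 97, 4 and 2 reads in total. No read was found for Mrpl36, Mrpl53 or Mrps21l, and a count of 0 allows 0.804 to 1.45 CPM in a library, depending on its depth.

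The libraries held 2062798 to 3731109 reads, of which the members took 0.293% to 0.395%. Reads in the mitochondrial genome made up 53.6% ± 2.74 of a CTR library and 54.8% ± 3.08 of an RSD library (SD, n = 6 each; exact two-sided permutation p = 0.5, 0.667 after adjustment over 4 library measures). All 8 cardiomyocyte markers were tested and present, with summed levels of 44846 to 53625 normalised CPM in CTR and 43371 to 49257 in RSD. For 6 of them the estimated log2 fold change, RSD over CTR, was below 0, beside 49.3% of all genes tested. Markers of red blood cells (4 of 4 tested) summed to 959.8 to 4592 in CTR and 1122 to 10442 in RSD. Of these 4, 3 had an estimate above 0, 1 of them at an unadjusted p under 0.05. The sums of macrophage markers were 41.7 to 68.6 in CTR and 34.6 to 49.5 in RSD over 5 genes, and 4 of 5 had an estimate below 0. Those of atrial markers were 93.8 to 217.8 in CTR and 59.8 to 433.3 in RSD over 4 genes, of which 3 were tested, all with an estimate above 0. Smooth muscle and pericyte markers summed to 64.0 to 110.2 in CTR and 52.7 to 91.2 in RSD, and 4 of 5 had an estimate below 0. The sums of fibroblast markers were 560.0 to 754.1 and 601.7 to 664.8, with 1 of 4 lower at an unadjusted p under 0.05. For endothelial markers they were 122.2 to 153.0 and 132.8 to 168.1, with 1 of 4 higher at that p (CTR and RSD). Over all genes tested, 4.47% were lower and 3.89% higher at that p. The part of these cell types in the results below was not tested. In tissue punches, fewer cells of a type and less RNA per cell cannot be told apart.

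The members differed widely in level. Counts come from the 3' end of transcripts, so a CPM value (reads scaled to a common library total, here also divided by a normalisation factor) was not divided by transcript length. Mean levels of the tested members ran from 3.65 normalised CPM for Mrpl40 to 235.8 for Mrpl12, with a median of 35.3. Only 7 members reached 100 CPM, 59 lay between 10 and 100, and 3 lay under 10. Mrpl12, the protein of the flexible stalk that receives translation factors, led the large subunit. The small subunit was led by Mrps35, with 151.7 ± 10.3 in CTR, and by Mrps18b, with 150.3 ± 22.1 (SD, n = 6), which did not differ beyond their spread. Within CTR, the median coefficient of variation of the tested members was 15.7%.

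**Figure D1:**
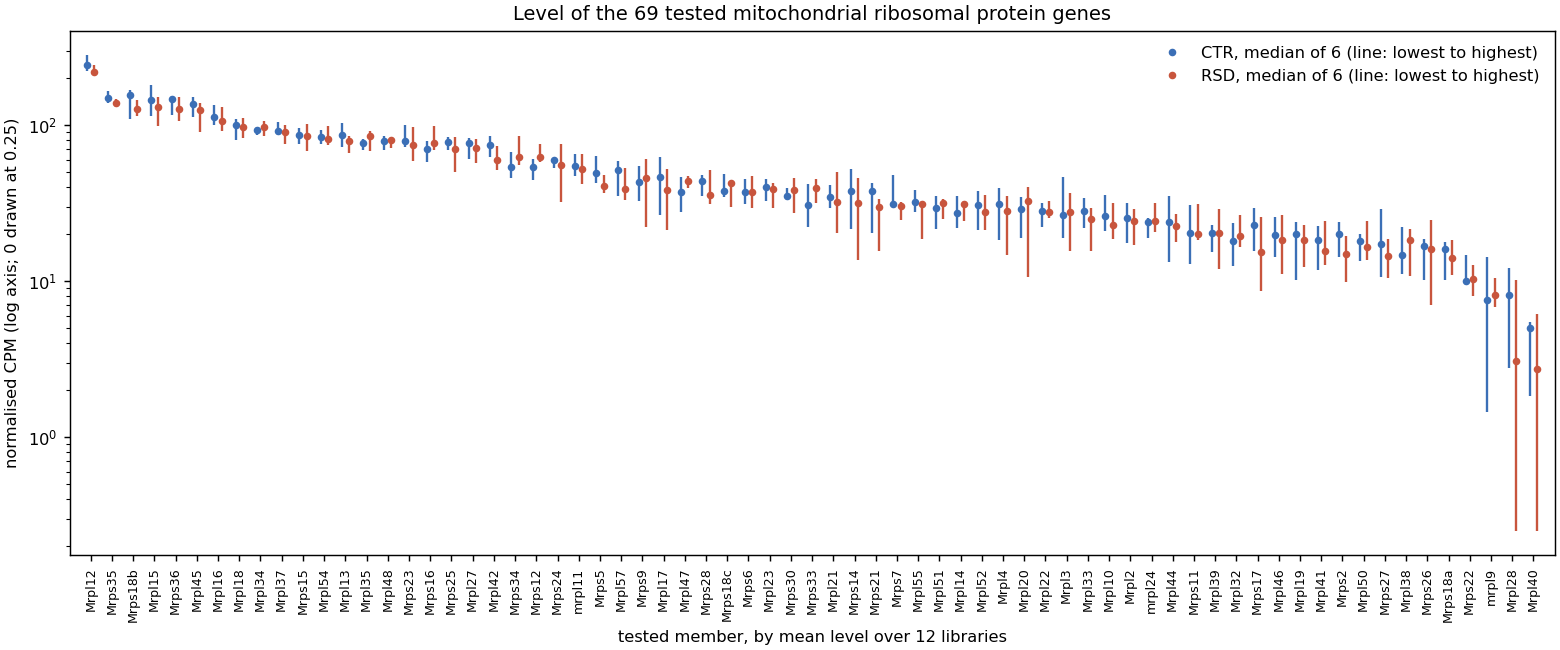
Median (point) and lowest-to-highest range (line) of normalised CPM in the 6 CTR (blue) and 6 RSD (red) libraries, on a log axis, for the 69 tested members sorted by mean level. The ranges of both groups overlap for every member, and the range widens at the low end (Mrpl28 and Mrpl40, whose value of 0 in RSD 33 is drawn at 0.25).

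Repeated defeat was not accompanied by a change in any single member that passed the test. None of the 69 tested members had a limma adjusted p under 0.05, and the smallest was 0.474. Over all 7511 genes tested, 2 passed (0.0266%). At an unadjusted p under 0.05 there were 5 members, or 7.25%, beside 8.36% of all genes. The 4 with a lower mean in RSD were Mrps17, Mrps5, Mrpl28 and Mrpl42 (5.80%, background 4.47%), and Mrps12 alone had a higher mean (1.45%, background 3.89%). edgeR and DESeq2 on the reads behind the CPM values also called 0 members after adjustment. Each gave 4 at an unadjusted p under 0.05, 3 lower (4.35%) and 1 higher. Over all genes, 4.55% were lower and 3.58% higher with edgeR, and 4.51% and 3.57% with DESeq2. No member had groups that did not overlap, beside 0.293% of all genes.

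The fitted differences were small and fairly well bounded. For 57 of the 69 members (82.6%, background 48.2%) the 95% interval of the fold change lay within 1.5-fold in either direction. The interval excluded a 2-fold change for 67, the others being Mrpl28 and Mrpl40. The standard error of the log2 fold change was 0.09 to 0.12 for members of 100 CPM or more, and 0.31 to 0.40 for those under 10. The background of 48.2% was not matched to the members for level. The estimate was below 0 for 48 members (69.6%, background 49.3%), and the median of the tested members was −0.07 beside 0.00 over all genes. This direction was kept with the mitochondrial genome's share of reads as a covariate (49 below 0, median −0.07) and lost with 2 other adjustments. When the top mitochondrial row's share of reads was the covariate (the top-row covariate), 31 were below 0 and the median was 0.02. That share itself had means of 19.9% in CTR and 23.2% in RSD. In RSD 33 the row held 25.7% of reads, beside 25.0% for all rows whose symbol starts with Mt- together. It is thus not 1 of those rows, and whether it is an RNA of the mitochondrial ribosome was not tested. With 1 surrogate variable, 28 were below 0 and the median was 0.02.

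Among the 15 tested small-subunit proteins with a bacterial counterpart, 11 had an estimate below 0, with a median of −0.12 (log2). The median of the members as a whole turned positive with the top-row covariate and with the surrogate variable, as given above. Mrps17 (ENSRNOG00000000926), a protein that binds the small-subunit RNA, had 15.5, 22.9 and 29.2 normalised CPM in the lowest, median and highest CTR library and 8.61, 15.3 and 25.7 in RSD. In RSD, 4 of 6 libraries were below every CTR library, and the groups overlapped. Its log2 fold change was −0.54 (SE 0.20, limma adjusted p = 0.474). Mrps5 (ENSRNOG00000015192), which lines the entry path of the messenger RNA in bacterial ribosomes, had 42.3, 49.5 and 63.0 in CTR and 36.5, 40.7 and 48.1 in RSD. Here 5 of 6 RSD libraries fell short of every CTR library. The log2 fold change was −0.33 (SE 0.13, limma adjusted p = 0.496).

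Mrps12 (ENSRNOG00000019949), the counterpart of the bacterial decoding-site protein S12, was the only member with a higher mean in RSD at an unadjusted p under 0.05. Its levels were 44.5, 53.6 and 60.3 in CTR (lowest, median, highest) and 58.1, 62.1 and 75.8 in RSD. All 6 RSD libraries were above the CTR median, and 4 were above every CTR library. The log2 fold change was 0.28 (SE 0.12, limma adjusted p = 0.522). Mrps2, another protein with a bacterial counterpart, had means of 19.7 ± 3.81 in CTR and 15.0 ± 3.62 in RSD (SD, n = 6), and all 6 RSD libraries were below the CTR median although the groups overlapped. Mrps15 and Mrps16, the most abundant tested proteins of this class, had log2 fold changes of −0.04 (95% interval −0.28 to 0.20) and 0.17 (−0.07 to 0.41). The sign of Mrps15 turned under other settings, among them the top-row covariate and the surrogate variable.

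The mitochondria-specific proteins of the small subunit had 9 tested members, 7 of them below 0, with a median of −0.13. None had an unadjusted p under 0.05 (all genes 8.36%). Mrps34, in which human variants cause a mitochondrial disease, had 46.0, 53.8 and 67.2 normalised CPM in CTR and 55.3, 62.2 and 84.6 in RSD. Every RSD library was above the CTR median, and 2 were above the highest CTR library. Its log2 fold change was 0.25 (SE 0.13, limma adjusted p = 0.626). For Mrps33 the log2 fold change was 0.26 (95% interval −0.05 to 0.58), and all 6 RSD libraries again exceeded the CTR median. Mrps27, a pentatricopeptide-repeat protein, had −0.32 (95% interval −0.74 to 0.11), and Mrps35, the most abundant one, had −0.13 (−0.32 to 0.07).

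Vertebrates carry 3 paralogues of the bacterial protein S18, of which Mrps18b and Mrps18c sit in the small subunit and Mrps18a in the large one. In the classes used here, only Mrps18c is counted as having a bacterial counterpart, and the others are counted as mitochondria-specific. Mrps18b was the most abundant of them, with 109.4, 155.7 and 168.9 normalised CPM in CTR and 113.5, 126.1 and 144.9 in RSD. All 6 RSD libraries were below the CTR median, while none was below the lowest CTR library, CTR 22. Its log2 fold change was −0.21 (SE 0.11, limma adjusted p = 0.635). Mrps18c had means of 40.3 ± 5.93 and 39.7 ± 5.29, and Mrps18a 14.7 ± 3.37 and 14.4 ± 2.36 (CTR and RSD, SD, n = 6). Their log2 fold changes were −0.02 and −0.01, with 95% intervals of −0.30 to 0.26 and −0.40 to 0.38, and both signs turned under other settings. Whether the paralogues differ in their response was not tested.

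In the large subunit, 27 proteins with a bacterial counterpart were tested, and 18 had an estimate below 0 (median −0.07). Mrpl28 (ENSRNOG00000042720) had the largest fitted difference among the members, a log2 fold change of −0.99 (SE 0.40, 95% interval −1.82 to −0.16, limma adjusted p = 0.497). It rests on 202 reads in all 12 libraries. The levels were 2.79, 8.12 and 12.2 in CTR and 0, 3.08 and 10.2 in RSD, with no read in RSD 33 and a level above the CTR median in RSD 39. Leaving out 1 library at a time moved its log2 fold change between −1.30 (without RSD 39) and −0.60 (without RSD 33). It was −0.43 with the top-row covariate and −0.21 with the surrogate variable.

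Mrpl12 (ENSRNOG00000036695) was measured with a far smaller error. It had 222.8, 243.4 and 280.8 normalised CPM in CTR and 213.3, 219.5 and 242.1 in RSD, and 5 of 6 RSD libraries were under every CTR library. Its log2 fold change was −0.16 (SE 0.09, limma adjusted p = 0.666), so that the 95% interval, −0.35 to 0.03, included no change. Mrpl47, the counterpart of bacterial L29, had 27.7, 37.3 and 46.2 in CTR and 39.3, 44.1 and 46.9 in RSD. All its RSD libraries exceeded the CTR median, and the groups overlapped (log2 fold change 0.24, 95% interval −0.04 to 0.52). Mrpl15, the second most abundant of this class, had −0.16 (−0.40 to 0.08) and Mrpl17, a protein near the exit of the nascent-chain tunnel, −0.27 (−0.67 to 0.13). Both of the last signs turned under the top-row covariate and the surrogate variable.

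Of the 17 tested mitochondria-specific proteins of the large subunit, 11 were below 0 (median −0.06). Mrpl42 (ENSRNOG00000042740) had 62.6, 74.5 and 84.6 normalised CPM in CTR and 51.7, 60.0 and 73.3 in RSD. All 6 RSD libraries were below the CTR median and 4 were below every CTR library. The log2 fold change was −0.26 (SE 0.12, limma adjusted p = 0.573). Mrpl57 had −0.24 (95% interval −0.55 to 0.07) and Mrpl40, the least abundant tested member, −0.57 (−1.34 to 0.20). The value of Mrpl40 was −0.22 without RSD 33, where it had no read, and −0.067 with the surrogate variable. Mrpl45, which anchors the ribosome at the inner membrane in human cells, had means of 132.9 ± 16.1 in CTR and 119.9 ± 16.8 in RSD (SD, n = 6; log2 fold change −0.15, 95% interval −0.39 to 0.09). Mrpl37 had 92.9 ± 6.77 and 89.0 ± 9.91, a difference smaller than the spread. Mrps36, the dehydrogenase subunit that shares the naming, had −0.15 (95% interval −0.38 to 0.09).

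**Figure D2:**
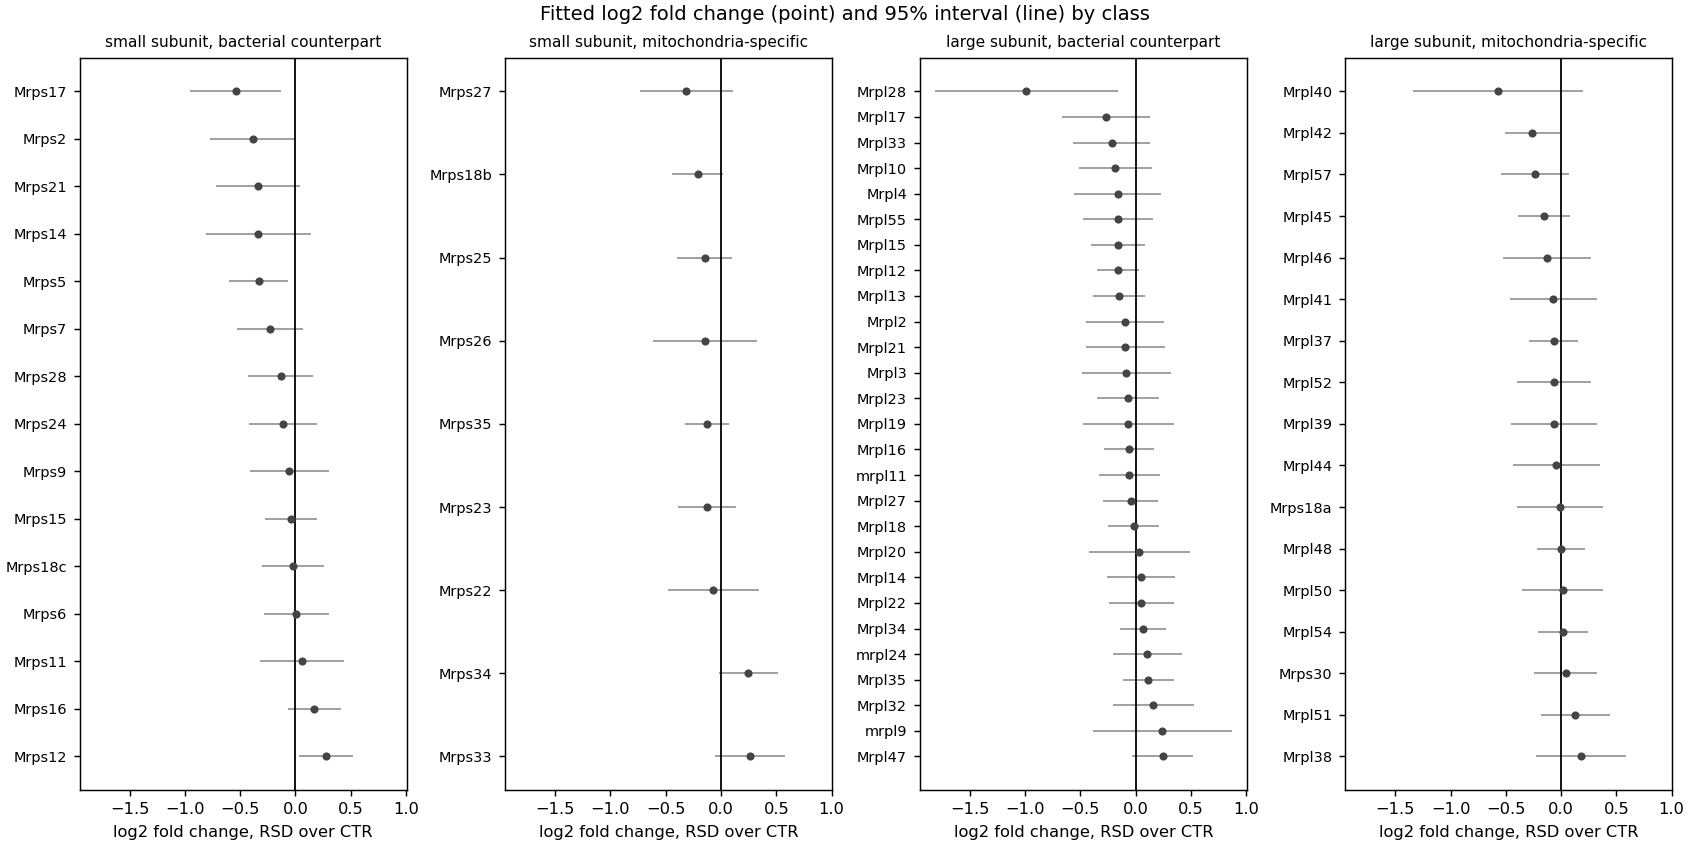
Fitted log2 fold change, RSD over CTR (point), with its 95% interval (line) for the tested members of the 4 classes; n = 6 libraries per group. Most intervals include 0. Those of Mrps17, Mrps5, Mrpl28 and Mrpl42 lie below 0 and that of Mrps12 above it, before any adjustment over genes. The majority of points left of 0 was kept with the mitochondrial genome covariate but not with the top-row covariate or the surrogate variable.

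Added up over all 77 members, the level was 3605 ± 207.7 normalised CPM in CTR and 3422 ± 226.4 in RSD (SD, n = 6), a ratio of 0.949. The lowest, median and highest libraries were 3220, 3647 and 3833 in CTR and 3061, 3439 and 3693 in RSD. The groups overlapped, and the difference of the means was smaller than the SD of either group. The small-subunit sum was 1252 ± 65.1 in CTR and 1185 ± 91.4 in RSD, and the large-subunit sum 2212 ± 137.7 and 2110 ± 118.3. The ratio of the small to the large sum was 0.567 ± 0.0196 in CTR and 0.561 ± 0.0146 in RSD. Over all 12 libraries this ratio lay between 0.544 and 0.591.

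**Figure D3:**
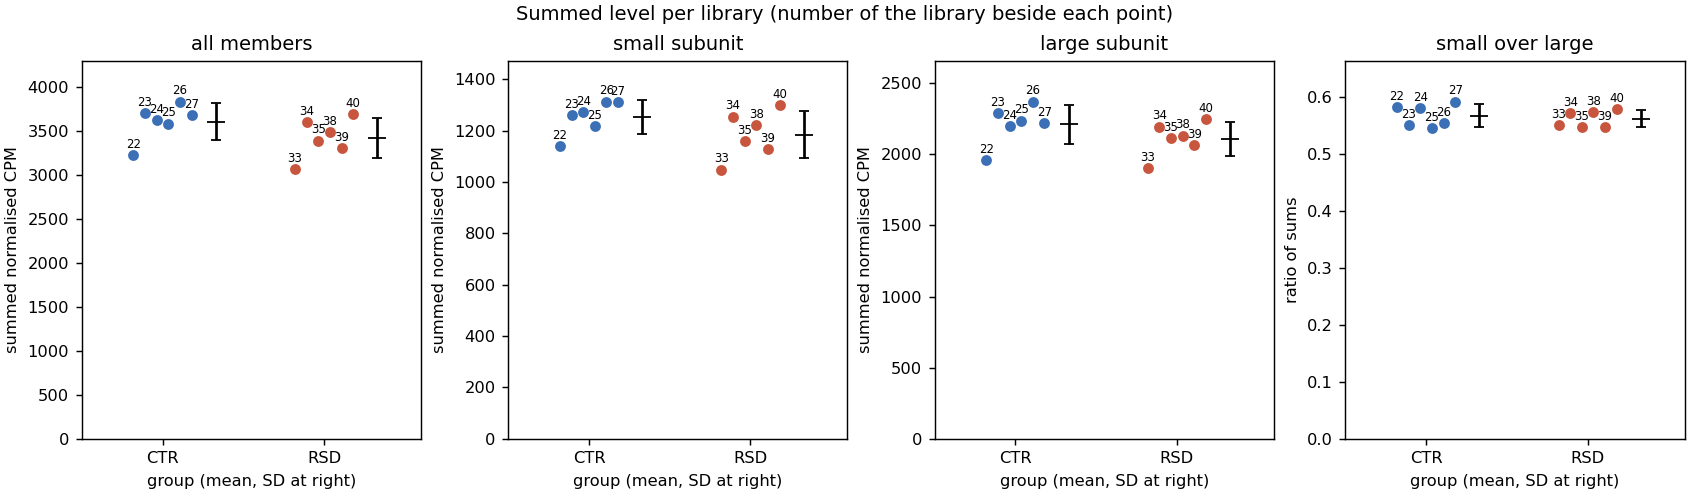
Summed normalised CPM of all members, of the small and of the large subunit, and the ratio of the last 2, in each library (points, with library numbers), with the mean and SD of each group at its right (n = 6). CTR 22 and RSD 33 are each the lowest library of their own group in each summed level, at 3220 and 3061 for all members. The ratio stays between 0.544 and 0.591.

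In each group, 1 library was most often the lowest for these genes. CTR 22 was the lowest CTR library for 31 of the 69 tested members (44.9%), while it was lowest for 22.9% of all genes tested. RSD 33 was the lowest RSD library for 30 members (43.5%), beside 25.8% of all genes. Within their groups, CTR 22 was highest for 4.35% of the members and 22.0% of all genes, and RSD 33 for 8.70% and 25.8%. RSD 33 also had the fewest reads, 2062798, whereas CTR 22 with 3096305 did not. The same libraries had the highest share of reads in the single most abundant row of the mitochondrial genome within their groups, 24.2% in CTR 22 and 25.7% in RSD 33. That share was 19.9% ± 2.80 for CTR and 23.2% ± 2.32 for RSD (SD, n = 6; exact two-sided permutation p = 0.0541, 0.216 after adjustment over 4 library measures). The part of this share in the results for the members was not tested beyond the fit that holds it as a covariate.

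**Figure D4:**
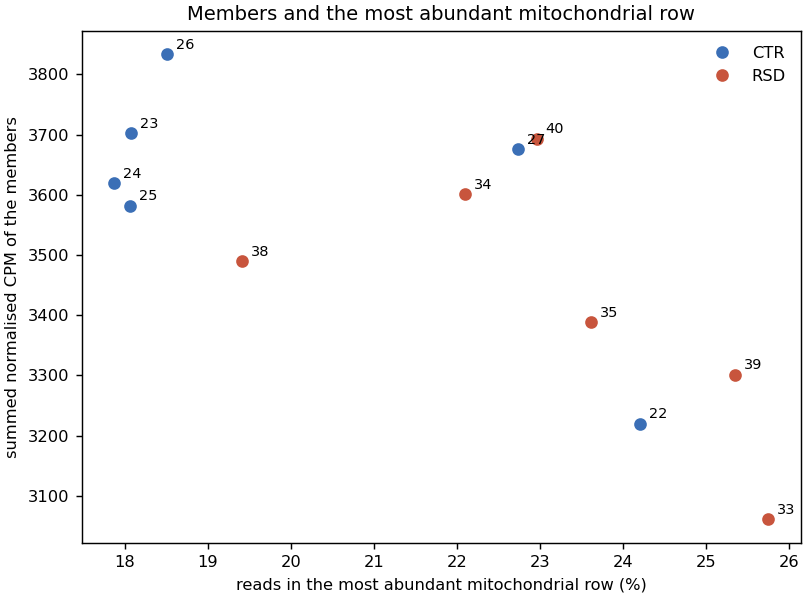
Summed normalised CPM of the members against the percentage of reads in the most abundant mitochondrial row, 1 point per library (blue CTR, red RSD, numbered). CTR 22 (24.2%, 3220) has the lowest sum and the highest share of the CTR libraries, and RSD 33 (25.7%, 3061) is at the lower right end.

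How many members passed an unadjusted p under 0.05 depended on CTR 22. Without it, 11 members had a lower mean in RSD (15.7%, all genes 6.98%) and 3 a higher one (all genes 6.03%), and the median log2 fold change was −0.11. Over the 26 alternatives, the smallest adjusted p of any member (limma, edgeR or DESeq2) ran from 0.138 to 0.998 and did not always belong to the same gene. Without CTR 22 it was 0.138 (limma), for Mrps17, so that 0 members passed, while 41 of 7645 genes did (0.536%). Calls thus also became more frequent over all genes. Without CTR 22 and RSD 33 together, a setting chosen after the data were seen, the counts were 8 lower (11.4%, all genes 6.55%) and 2 higher (all genes 5.58%). Again 0 members passed adjustment, beside 0.493% of all genes. Mrps17, Mrps5, Mrpl28, Mrpl42 and Mrps12 kept the sign of their log2 fold change in every alternative in which they were tested, but not its size. With the top-row covariate, Mrps17 had −0.27, Mrpl28 −0.43 and Mrpl42 −0.15, and with the surrogate variable Mrps17 and Mrpl28 both had −0.21. Mrps5 and Mrps12 moved by less than 1.5 times.

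After the group means were removed, the members varied together only weakly across the 12 libraries. Over 2346 pairs of tested members the median correlation was 0.14, and 64.2% were above 0. Over all pairs of tested genes the median was 0.00 and 49.9% were above 0. These values describe 12 shared libraries, and genes are not independent of each other.

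Several proteins of the same ribosome carry other symbols, and the 6 on the list used here were all tested. An estimate below 0 was found for 4, and 1, lower in RSD, had an unadjusted p under 0.05 (16.7%, all genes 4.47%). That was Gadd45gip1, a large-subunit protein, with 28.2, 38.8 and 55.1 normalised CPM in CTR and 22.5, 31.3 and 41.4 in RSD. The groups overlapped, with 5 of 6 RSD libraries below the CTR median (log2 fold change −0.35, SE 0.17, limma adjusted p = 0.572). The GTP-binding small-subunit protein Dap3 had means of 20.6 ± 2.81 and 20.7 ± 4.55 in CTR and RSD. Chchd1, Aurkaip1 and Ptcd3, all of the small subunit, had log2 fold changes of −0.18, 0.03 and 0.14, with 95% intervals that included 0.

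Genes that act with the ribosome gave no member past the adjusted threshold in any list. Of 9 tested translation factors, 2 had an unadjusted p under 0.05, both lower in RSD (22.2%, all genes 4.47%). Mtrf1, a release factor, had 8.53, 14.0 and 20.1 normalised CPM in CTR and 4.56, 9.29 and 12.6 in RSD. Every RSD library was below the CTR median, and 2 were below all CTR libraries (log2 fold change −0.67, SE 0.23, limma adjusted p = 0.433). Mtfmt, which formylates the initiator methionyl-tRNA, had −0.59 (SE 0.28, limma adjusted p = 0.572). Tufm, the elongation factor that delivers aminoacyl-tRNA, had means of 98.8 ± 14.5 and 101.7 ± 14.3, and Gfm1, the translocase, 51.4 ± 8.87 and 55.4 ± 7.07 (CTR and RSD, SD, n = 6).

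The 17 tested assembly and rRNA-modification genes contained 1 lower and 1 higher at an unadjusted p under 0.05 (5.88% each, all genes 4.47% and 3.89%). Mpv17l2, needed for assembly of the large subunit in human cells, had 9.75, 10.7 and 13.7 in CTR and 12.6, 15.4 and 18.2 in RSD, with 5 of 6 RSD libraries above the highest CTR library. Its log2 fold change was 0.42 (SE 0.18, limma adjusted p = 0.517). Noa1, a GTPase of ribosome assembly, had −0.73 (SE 0.32, limma adjusted p = 0.525), with 2.05 to 6.40 normalised CPM in CTR and 1.01 to 4.24 in RSD. Mtg1, another GTPase, had −0.40 (95% interval −0.87 to 0.08). Of 12 tested mitochondrial aminoacyl-tRNA synthetases none had an unadjusted p under 0.05 (all genes 8.36%), and Aars2, Tars2 and Iars2 had log2 fold changes of −0.40, 0.25 and 0.18.

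Among 11 tested genes of mitochondrial transcription and RNA stability, Lrpprc, which stabilises mitochondrial messenger RNAs, had the smallest p. Its levels were 237.9, 256.2 and 326.5 normalised CPM in CTR and 183.5, 211.6 and 251.7 in RSD. All RSD libraries were below the CTR median and 5 of 6 below the lowest CTR library, but the test was not passed after adjustment (log2 fold change −0.32, SE 0.10, limma adjusted p = 0.433). Mtpap, the mitochondrial poly(A) polymerase, had −0.45 (95% interval −0.92 to 0.02) and Tfb2m, a transcription initiation factor, −0.42 (−0.93 to 0.10). Tfam, which packages and transcribes the mitochondrial genome, had −0.15 (−0.50 to 0.21).

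Of 7 tested regulators of mitochondrial biogenesis, Ppargc1b alone had an unadjusted p under 0.05, with a higher mean in RSD (14.3%, all genes 3.89%). This transcriptional coactivator had 28.4, 32.4 and 45.9 normalised CPM in CTR and 31.8, 45.5 and 53.4 in RSD, and the groups overlapped (log2 fold change 0.37, SE 0.15, limma adjusted p = 0.496). The related Ppargc1a was low, at 8.62 ± 2.82 and 7.95 ± 1.88 (CTR and RSD, SD, n = 6). For the receptor Esrra the log2 fold change was −0.25 (95% interval −0.62 to 0.12). The transcription factors Nrf1, Gabpa and Yy1, whose motifs are described below, had 0.27 (−0.37 to 0.91), 0.43 (−0.18 to 1.05) and −0.23 (−0.64 to 0.17). Single libraries weighed on these values: without CTR 23 Nrf1 had 0.024 and Gabpa 0.19, and without RSD 33 Yy1 had −0.027.

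Both other groups of genes most like the members had more genes at an unadjusted p under 0.05. Of 64 tested cytosolic ribosomal protein rows, 14 (21.9%) had a lower mean in RSD at that p, with a median log2 fold change of −0.14 and 1 past the adjusted threshold. Of 76 tested nuclear genes for ATP synthase or the respiratory chain, 17 (22.4%) had a lower and 1 a higher mean at that p, with a median of −0.08. The members had 4 of 69 lower (5.80%) and a median of −0.07. Over all genes, 4.47% were lower and 3.89% higher at that p. The share of estimates below 0 was 75.0% for the cytosolic rows and 78.9% for the ATP synthase and respiratory chain genes. That share was 69.6% for the members and 49.3% over all genes. The difference between these groups of genes was not tested.

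Short motifs were counted in the promoters of the members and in all promoters. Windows of 300 bases, from 250 before to 50 after the annotated start of transcription, were found for 62 of the 77 members in RefSeq (build GRCr8), beside 19005 protein-coding genes. Factors known to act on nuclear genes of mitochondria recognise cores that were searched on both strands. The core of YY1, AAGATGGC, was in 15 members (24.2%) and in 3.92% of all windows. That of ETS factors such as Gabpa, CCGGAAGT, was in 8 (12.9%, all 4.99%), and that of NRF1, GCATGCGC, in 5 (8.06%, all 3.23%). At least 1 of the 3 was in 24 members (38.7%, all 11.3%), and no matches of different cores overlapped in the members. TATAAA was in 7 (11.3%, all 13.1%). The median GC content was 55.7% in the members and 55.3% in all windows, and the median number of CpG dinucleotides was 18 and 12. A match describes letters in a window and does not show binding.

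**Figure D5:**
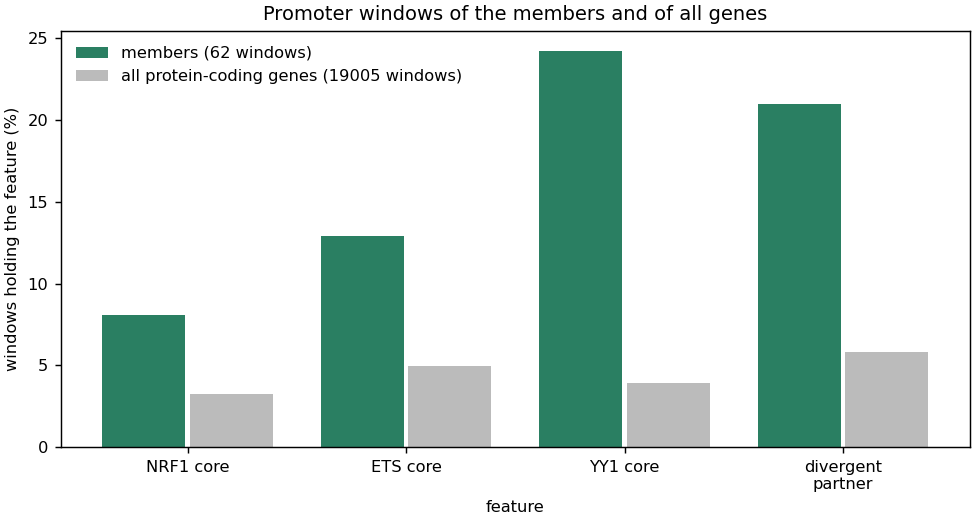
Percentage of promoter windows of 300 bases that hold each motif core on either strand, or whose window overlaps that of a divergent neighbour, in the 62 members with a window (green) and in all 19005 protein-coding genes (grey). The YY1 core (24.2% and 3.92%) and a divergent partner (21.0% and 5.84%) show the widest gaps.

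Of the 15 YY1 cores, 13 stood on the strand of the gene, and 11 of these began at or after the annotated start, inside the transcribed part of the window. Counted over all 15, 13 began within 50 bases of the start on either side, and 7 were followed by ggc. The core contains the letters ATG, and whether any of these is the start codon of its gene was not tested. The 7 are shown with 10 bases on each side to let the shared stretch be read beside its differing surroundings, and Mrpl42 and Mrps18b are added because their levels are described above. Each is written 5′ to 3′ on the gene's strand, with the core in capitals.
Mrpl37, chr5:127074944-127074971, minus strand: tgcccgggcaAAGATGGCggcgtccagg
Mrpl46, chr1:142116989-142117016, minus strand: ggaagacggaAAGATGGCggcgcccata
Mrpl50, chr5:68668044-68668071, minus strand: gagcttgtcgAAGATGGCggcgctgtgt
Mrps10, chr9:21122406-21122433, minus strand: tcagggcaccAAGATGGCggcgcgcgca
Mrps18a, chr9:22367363-22367390, minus strand: gtgtgttcccAAGATGGCggccctcagg
Mrps27, chr2:32474223-32474250, plus strand: ggtacgctccAAGATGGCggcccccatg
Mrps30, chr2:52195869-52195896, minus strand: gcggaggacaAAGATGGCggctgccagg
Mrpl42, chr7:32028486-32028513, minus strand: agattgaagcAAGATGGCgagcgcgcgg
Mrps18b, chr20:2843024-2843051, plus strand: gatgtgcgacAAGATGGCtgcctccttg

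Over all 15 members with a YY1 core, untested ones near 0 included, the median level was 19.5 normalised CPM, beside 29.3 for the members with a window and no core. The order turned over the tested members, with 34.1 for 12 with the core and 31.3 for 44 without it. The median log2 fold change was −0.04 in the 12 tested members with the core and −0.07 in the 44 without it. These medians are a description, with no test.

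The start regions of 13 members (21.0%) overlapped the window of a gene that runs the other way, beside 5.84% of all genes. In 1 case both genes are members, Mrpl46 and Mrps11, whose starts are 234 bases apart and whose windows share 267 bases. A protein of each subunit is thus transcribed from either side of this stretch. Their log2 fold changes were −0.13 (95% interval −0.52 to 0.27) and 0.06 (−0.32 to 0.44). The window of Mrpl46, on the minus strand of GRCr8 at chr1:142116981-142117280, is shown because it also covers most of the Mrps11 window, with its YY1 core in capitals.
Mrpl46: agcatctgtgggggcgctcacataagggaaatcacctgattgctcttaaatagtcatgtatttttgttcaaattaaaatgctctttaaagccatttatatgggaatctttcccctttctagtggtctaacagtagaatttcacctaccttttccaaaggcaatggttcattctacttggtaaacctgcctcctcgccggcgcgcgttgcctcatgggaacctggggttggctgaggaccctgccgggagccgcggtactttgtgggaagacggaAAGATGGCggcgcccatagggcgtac
Other divergent partners of members include Ndufb5, a subunit of respiratory complex I beside Mrpl47, with a log2 fold change of 0.00 (SE 0.09), and Psma2, a proteasome subunit beside Mrpl32, with −0.23 (SE 0.13). The chaperonin subunit Tcp1, beside Mrpl18, had 0.14 (SE 0.17). None of these partners had a limma adjusted p under 0.05.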

How the data were processed

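The authors deposited 1 table of CPM values (read counts scaled to a common library total) for 32735 rows and 12 libraries. Per the labels' protocols, 3' end libraries were made from 100 ng of total RNA with the QuantSeq forward kit. Per the submitters' processing notes, the tools were STAR 2.6.0a, HTSeq 0.9.1, bcl2fastq and DESeq2 and the build rn6, with no roles given. Low CPM values were whole multiples of 1 step: 100% of values in each library came out whole within 0.1 read. 1 read was worth 0.268 to 0.485 CPM.

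Values were divided by TMM factors, and log2(CPM + 1) was fitted with limma 3.58.1 (R 4.3.3), with an intensity trend and two-sided Benjamini-Hochberg adjustment over the 7511 genes kept by filterByExpr (minimum count 10). Fold changes are on this scale, RSD over CTR, and understate the change of low genes. The count tests edgeR 4.0.16 and DESeq2 1.42.0 on the recovered reads were alternatives and called 2 genes each. sva 3.50.0 gave the surrogate variable. Library measures were compared by exact permutation over 924 splits. The models were tested on simulated data.

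The members and lists were chosen with earlier results of these data known. Named genes are, per class, the 4 with the smallest p and the 2 with the highest level, the Mrps18 paralogues, members with no read, the 3 with the smallest p in each other list, and fixed genes. Genes named for a promoter motif or a shared start region were chosen by sequence. Alternatives were RLE factors, CPM as deposited, scaling to nuclear reads, pseudocounts of 0.5 and 3, no filter, 50 reads in 6 libraries, limma-voom, 2 mitochondrial covariates, 1 surrogate variable and leaving out libraries. Each library is 1 rat, and the labels give no batch.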

Additional observations from a re-analysis of the deposited data

Results flagged for a closer look

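In 7 of 112 combinations of a group and a named gene or summed measure, 1 library lay apart from the other 5 by Dixon's gap ratio, where about 6 would be expected by chance at 1 in 20. Among the members, Mrpl12 was highest in RSD 38 (gap ratio 0.700), at 242.1 normalised CPM with 221.9 as the next value. Mrps16 was highest in RSD 33 (0.692), at 98.8 with 78.0 next. Among the genes that act with the ribosome, Mtfmt was lowest in CTR 25 (0.731) and in RSD 33 (0.645), at 3.65 and 2.53 normalised CPM. Mtpap was highest in CTR 24 (0.764), Ppargc1b was highest in CTR 22 (0.638) and Tfam was lowest in RSD 33 (0.674).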

How the results depend on the processing

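The count of 0 members past adjusted p 0.05 was the same under all 26 alternatives, including each library left out in turn. Members higher in RSD at an unadjusted p under 0.05 numbered 1; the count was 0 with CPM as deposited, limma-voom and the top mitochondrial row as covariate, 4 with the mitochondrial genome share as covariate, and 0 to 3 with 1 library left out. Members lower in RSD numbered 4; the count was 1 with the top-row covariate, 0 with 1 surrogate variable, 8 without CTR 22 and RSD 33, where 2 were higher, and 2 to 11 with 1 library left out (11 without CTR 22). Over all genes, the share lower at that p was 4.47%, and it was 1.58% with the top-row covariate, 2.13% with the surrogate variable, 6.98% without CTR 22 and 6.55% without CTR 22 and RSD 33. The share higher over all genes was 3.89%, and it was 2.41% with CPM as deposited and 4.50% with limma-voom. It was 2.09% with the top-row covariate, 3.97% with the mitochondrial genome covariate and 5.58% without CTR 22 and RSD 33. With 1 library left out it ran from 2.83% (without CTR 24) to 6.03% (without CTR 22). The median log2 fold change of −0.07 was 0.02 with the top-row covariate and 0.02 with the surrogate variable, −0.11 with CPM as deposited (all genes −0.04), and −0.11 to −0.04 with 1 library left out. The cause was not tested. The ratio of the summed levels was 0.949, and 0.925 with CPM as deposited.

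Of 49 genes followed, signs turned in 31 of 672 results under other settings and in 20 of 588 with a library left out, and none became significant. Their log2 fold change moved by over 1.5 times for 28 genes with the top-row covariate, 30 with the surrogate variable, 15 without CTR 22 and RSD 33, and 28 with at least 1 of the libraries left out. With the top-row covariate the log2 fold change was 0.015 for Mrpl15, 0.040 for Mrpl17, 0.029 for Mrps15, 0.042 for Mrps18a, −0.099 for Aurkaip1, 0.058 for Chchd1, 0.12 for Dap3, 0.011 for Mrps36, −0.031 for Nrf1, 0.15 for Ppargc1a, 0.046 for Tfam. With 1 surrogate variable it was 0.017 for Mrpl15, 0.10 for Mrpl17, 0.021 for Mrps15, 0.13 for Mrps18a, 0.0087 for Mrps18c, −0.15 for Aurkaip1, 0.041 for Chchd1, 0.028 for Dap3, 0.072 for Ppargc1a, 0.082 for Tfam. Without CTR 22 and RSD 33 it was 0.023 for Mrps15, 0.10 for Mrps18c, −0.045 for Aurkaip1, 0.034 for Yy1. With limma-voom it was 0.021 for Mrps18c, −0.0075 for Aurkaip1. With edgeR it was 0.0023 for Dap3. With DESeq2 it was 0.0035 for Dap3. With CPM as deposited it was −0.015 for Aurkaip1. With the mitochondrial genome covariate it was −0.013 for Aurkaip1. With 1 library left out the ranges were −0.093 to 0.022 for Mrps15, −0.10 to 0.057 for Mrps18a, −0.059 to 0.058 for Mrps18c, −0.074 to 0.11 for Aurkaip1, −0.085 to 0.079 for Dap3, −0.18 to 0.036 for Ppargc1a, −0.020 to 0.11 for Tufm. No paired analysis was possible because the 2 groups share no replicate numbers. Members under 10 CPM rest on few reads, which limits them to standard errors of 0.31 to 0.40 (log2).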
